A study of Mus musculus with 4 samples.

Results

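Mature dendritic cells (DCs) that carried RNA of both Ccr7 and Fscn1 made up 178 of the 6625 kept barcodes (2.69%) in single-cell RNA-Seq (scRNA-Seq) of YUMMER1.7 tumors. YUMMER1.7 is a mouse melanoma line, grown here under the skin of male C57BL/6J wild-type mice. A kept barcode, taken as 1 cell, had 200 to 5000 genes, at most 5% mitochondrial UMIs (a UMI is 1 counted RNA molecule) and a top hashtag with at least 3 times the UMIs of the second. A member had at least 1 UMI of Ccr7 and of Fscn1, no UMI of Cd3d, Cd3e or Cd3g, which encode the CD3 complex of T cells, and at most 1 UMI of Siglech, a plasmacytoid DC gene. The cells were thus chosen by their counts of these genes, and differences between members and other barcodes are therefore described without a test.

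Conventional DCs take up antigen in tissue and then mature. They stop sampling, raise costimulatory molecules and CCR7, the receptor for the lymph node chemokines CCL19 and CCL21, and crawl through lymphatics with the help of fascin, the actin-bundling product of Fscn1. In tumors such cells are known for CCL22, which draws regulatory T cells, for IL-12, which favors interferon-γ responses of T cells, and for ligands that restrain T cells, such as PD-L1.

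The data came from 2 pooled libraries, 1 for the long treatment cohort (2 weeks, 4 doses, tumors taken at day 21) and 1 for the short treatment cohort (1 week, 2 doses, day 14). Mice were 7 to 8 weeks old, and treatment by intraperitoneal injection began at day 7. The groups were isotype control (IgG1), 10 mg/kg of anti–PD-1 (clone RMP1-14), 20 mg/kg of anti-MIF (clone IIID.9) and both antibodies together. Sorted CD45+ and CD45− cells were recombined at 80% and 20%. Each group of a cohort was 1 hashtagged sample, so there were no replicates of a group, and how many mice stood behind a hashtag is not given in the sources used here. Cohort, library, tumor age and number of doses cannot be told apart.

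A hashtag is an antibody with a DNA barcode that marks the sample of origin, and the arms were read from these 15-base barcodes, each given whole, in capitals, as the files name it:
Isotype: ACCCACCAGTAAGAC
anti-PD1: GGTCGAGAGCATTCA
anti-MIF: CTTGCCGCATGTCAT
anti-PD1-MIF: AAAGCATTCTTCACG
anti-PD1-MIF-DDT: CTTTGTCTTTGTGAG
The group of the fifth hashtag is not named in the labels. Its 15 members stayed out of every test and of the values and ratios over the 4 named arms, which hold the other 163 members. Values said to be over all members include them.

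The long library held 119 members among 2053 kept barcodes (5.80%) and the short library 59 among 4572 (1.29%). Before the filters the libraries held 2516 barcodes with 23702910 gene UMIs and 4987 barcodes with 31799441. Members had a median of 9180 UMIs and 2550 genes in the long cohort, against 8742 UMIs and 2525 genes in the other kept barcodes. In the short cohort these were 7332 UMIs and 2207 genes against 5897 and 1978. The median mitochondrial share of members was 0.285% and 0.349%, against 0.561% and 0.720% in the others. The libraries shared 20 barcode sequences, 15 of them kept in both, and none was a member in both. Hashtags that failed the 3-fold rule removed 7 further barcodes that met the gene rule in the long cohort and 5 in the short cohort.

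The markers outside the rule were common in members. Ccl22 was detected in 83.2% of all members in the long and 83.1% in the short cohort, Il12b in 50.4% and 42.4% of them, and Cacnb3, a calcium channel subunit, in 100% and 91.5%. In T barcodes (at least 2 CD3 UMIs), which show what free RNA adds, these shares were 0.319%, 0.319% and 0% in the long cohort at a median of 5262 UMIs, and 0.494%, 0.247% and 1.73% in the short cohort at 4063. After thinning to 2000 UMIs per cell, long members had shares of 56.4%, 41.0% and 77.8%, and short members of 56.4%, 32.7% and 67.3%.

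Few members lay near the limit of the rule. The median long member had 33 UMIs of Ccr7 and 41 of Fscn1, and the median short member 20 and 15. Only 2 long and 4 short members had a single UMI of either gene. Just outside stood 41 long and 44 short barcodes with Ccr7 and no Fscn1, of which 26.8% and 15.9% had Ccl22. A further 24 and 13 had Fscn1 without Ccr7, with Ccl22 in 25% and 15.4%. The CD3 condition left out 3 long barcodes and 1 short barcode, all with Ccl22, and the Siglech condition left out none.

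Ccl22 (chr8:94745590-94751699, plus strand) varied among arms. In CPM (counts of the gene scaled to a total of 1000000 UMIs over the summed members of an arm) its level in long members was 603 for isotype, 541 for anti–PD-1, 1132 for anti-MIF and 473 for the combination. In the short cohort the levels were 1014, 666, 857 and 411 in the same order. The arm with both antibodies was lowest in each cohort, and no arm of the other barcodes reached 20 CPM.

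Il12b (chr11:44400063-44414033, plus strand) encodes the p40 subunit that IL-12 shares with IL-23. Its level was 436, 519, 1032 and 312 CPM in the long arms and 639, 2251, 206 and 569 CPM in the short arms. The anti-MIF arm was thus highest in the long and lowest in the short cohort. In the short anti–PD-1 arm, however, 140 of 142 UMIs sat in 1 member, so the level of that arm rests on 1 cell. The gene was detected in 3 of 11, 6 of 14, 46 of 79 and 2 of 10 members of the long arms, and in 10 of 23, 3 of 9, 7 of 8 and 2 of 9 members of the short arms.

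Cacnb3 (chr15:98630840-98644529, plus strand) was the steadiest of the 3 markers, with 1118, 1023, 902 and 946 CPM in the long arms and 805, 1015, 720 and 1043 CPM in the short arms. The rule gene Ccr7 (chr11:99144196-99155077, minus strand) read 3348 to 4682 CPM in the long and 2655 to 4438 CPM in the short arms. Fscn1 (chr5:142960343-142973185, plus strand) read 4068 to 5434 CPM in the long and 1696 to 2943 CPM in the short arms, which did not overlap.

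The 250 bases before the RefSeq start of 4 genes (build GRCm38.p6) are shown because, among the marker and leading genes of the members, they hold the TATAA matches nearest to the start and the NF-kB consensus matches. Capitals mark TATAA in Fscn1 (chr5:142960105-142960354, plus strand) and Il12b (chr11:44399813-44400062, plus strand), and the NF-kB consensus, a 10-base motif named only, in Ramp3 (chr11:6658283-6658532, plus strand) and Mmp25 (chr17:23645270-23645519, minus strand), all read 5′ to 3′ on the strand of the gene:
Fscn1: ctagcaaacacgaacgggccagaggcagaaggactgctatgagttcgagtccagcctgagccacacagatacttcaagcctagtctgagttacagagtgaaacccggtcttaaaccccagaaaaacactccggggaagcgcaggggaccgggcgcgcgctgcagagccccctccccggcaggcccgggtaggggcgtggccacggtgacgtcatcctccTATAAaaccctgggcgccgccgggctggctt
Il12b: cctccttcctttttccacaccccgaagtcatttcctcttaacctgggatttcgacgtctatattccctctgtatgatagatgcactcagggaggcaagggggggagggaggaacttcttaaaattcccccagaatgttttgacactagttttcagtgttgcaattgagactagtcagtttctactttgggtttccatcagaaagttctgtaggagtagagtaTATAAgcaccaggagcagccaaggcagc
Ramp3: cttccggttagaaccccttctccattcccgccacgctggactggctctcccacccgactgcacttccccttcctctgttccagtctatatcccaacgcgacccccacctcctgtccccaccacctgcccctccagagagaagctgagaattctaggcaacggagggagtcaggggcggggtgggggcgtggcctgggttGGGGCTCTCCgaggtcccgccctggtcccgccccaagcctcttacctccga
Mmp25: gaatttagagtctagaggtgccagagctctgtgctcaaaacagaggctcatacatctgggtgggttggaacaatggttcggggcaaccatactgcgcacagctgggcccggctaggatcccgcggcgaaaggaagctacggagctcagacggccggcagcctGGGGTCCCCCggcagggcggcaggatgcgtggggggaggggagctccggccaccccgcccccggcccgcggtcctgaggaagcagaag
The last base of TATAA lay 27 bases before the start in Fscn1 and 24 in Il12b, and the NF-kB consensus ended 42 bases before it in Ramp3 and 79 in Mmp25. Of the 27 marker and leading genes, 22 had a promoter in the table. TATAA, searched on both strands, was in a promoter of 5 of these 22 genes (22.7%) and of 25.8% of all 27025 genes with promoters of that length. The NF-kB consensus was in 2 of 22 (9.09%) and in 4.46% of all genes. The first motif thus stood near its background share, and the second rests on 2 genes. A match of letters is a description and not a binding site.

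To describe the members' RNA, their CPM was set against that of the other kept barcodes of the same arm, with 1 member UMI added, and a gene was counted as higher or lower where it differed at least 2-fold in each of the 4 named arms. In the long cohort 431 of 2852 genes with at least 50 member UMIs were higher (15.1%), and 467 of 2251 genes with at least 1000 UMIs in the others were lower (20.7%). In the short cohort 287 of 1114 were higher (25.8%) and 550 of 3197 were lower (17.2%). Over all genes measured by either minimum, the median log2 ratio was 0.01 in the long and −0.39 in the short cohort. The cohorts shared 245 higher genes, 56.8% of the long and 85.4% of the short calls, and 347 lower genes, 74.3% and 63.1%. Of the 431 genes higher in the long cohort, 287 had at least 50 member UMIs in the short cohort, and each of them had a ratio above 0 there. That minimum favors genes that are high in short members, so this is a description and not a check of 1 cohort by the other.

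**Figure D1:**
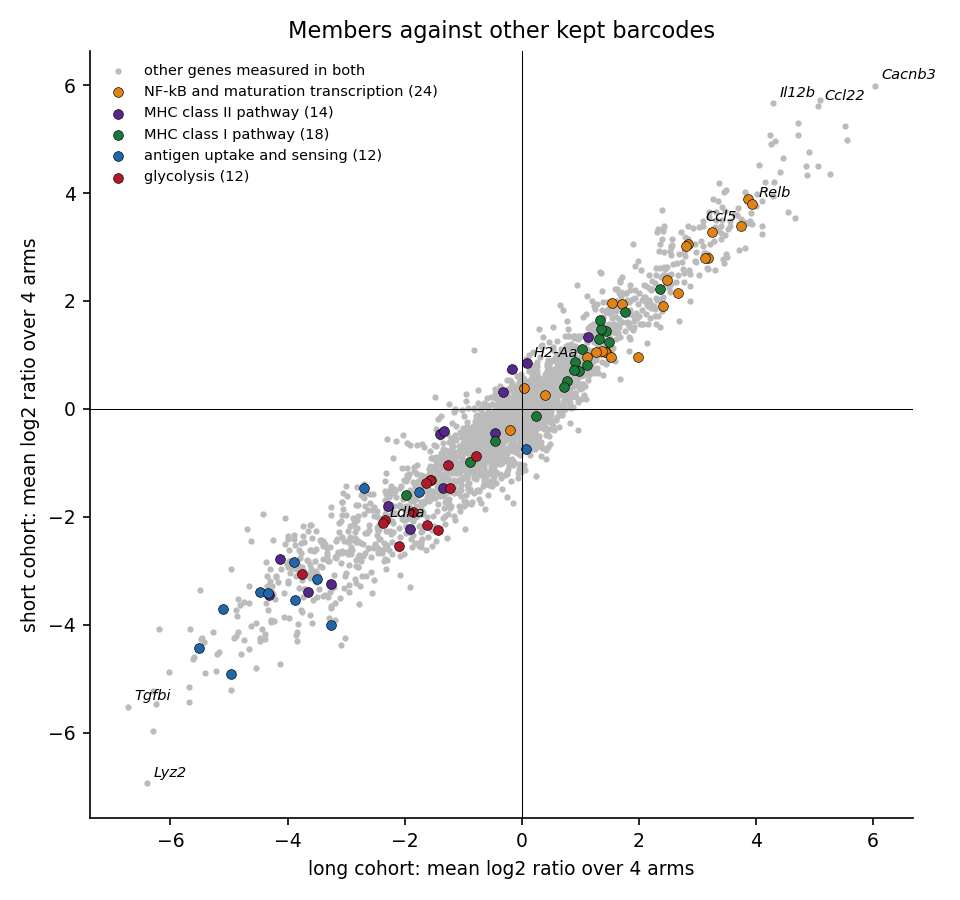
Mean log2 ratio of members to other kept barcodes of the same arm, long cohort (x axis) against short cohort (y axis), for the 2774 genes measured in both, 1 point per gene. Most strongly enriched or depleted genes lie near the diagonal, Cacnb3 at 6.04 and 5.99 among the highest and Lyz2 at −6.40 and −6.93 among the lowest.

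The 25 genes with the largest ratios in the long cohort have varied products. Ccl22 had a mean log2 ratio of 5.07 in the long and 5.61 in the short cohort, and Il12b 4.29 and 5.66. Il4i1, an enzyme that breaks down amino acids T cells need, had 5.56 and 4.98, Cd200, the ligand of an inhibitory receptor on myeloid cells, 4.46 and 4.65, and Sema7a, a membrane semaphorin, 4.25 and 4.91. The level of Il4i1 in members was 704, 549, 630 and 482 CPM in the long arms and 452, 333, 720 and 379 CPM in the short arms, against at most 16.9 CPM in the other barcodes of any named arm. The level of Cd200 was 324, 608, 660 and 312 CPM in the long arms and 502, 492, 463 and 300.2 CPM in the short arms, with at most 27.6 CPM in the others. Every named arm of members lay above every named arm of the other barcodes for both genes.

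Socs2, a feedback inhibitor of cytokine signaling, had mean log2 ratios of 5.06 and 4.51 in the long and short cohorts, Tbc1d4, a Rab GTPase activator, 5.09 and 5.73, Mreg, a melanosome transport gene, 5.52 and 5.24, and Adcy6, an adenylyl cyclase, 4.41 and 4.39. Ramp3, a partner of the calcitonin receptor-like receptor, had 4.72 and 5.29, with a level of 581, 675, 981 and 331 CPM in the long arms and 1246, 840, 1114 and 743 CPM in the short arms. Mmp25, a membrane-anchored metalloproteinase, had 4.71 and 5.07, and Adgrg6, an adhesion G protein-coupled receptor, 4.15 and 4.20. Cd63, a tetraspanin of late endosomes, had 4.33 and 4.96, and Fabp5, a fatty acid carrier, 4.29 and 3.94. Bcl2l14, a BCL-2 family gene, had 4.87 and 4.34, and Serpinb6b, a protease inhibitor, 4.24 and 5.08. The other leading genes were Nudt17 (5.26 and 4.35), Strip2 (4.91 and 4.76), Gm13546 (4.85 and 4.50), Slc27a3 (4.78 and 2.56), Tmem150c (4.67 and 3.53), 1810064F22Rik (4.64 and 2.87), Syn3 (4.55 and 3.65) and Tmem123 (4.30 and 4.20), each with the long and then the short mean log2 ratio. Slc27a3 (38 UMIs) and 1810064F22Rik (43 UMIs) had too few member UMIs to be counted in the short cohort, and the latter was listed at 0 in its anti–PD-1 arm.

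The 10 genes with the lowest ratios in the long cohort include genes of monocytes, macrophages and cytotoxic lymphocytes. Tgfbi had a mean log2 ratio of −6.73 in the long and −5.51 in the short cohort, the lysozyme gene Lyz2 −6.40 and −6.93, the chemokine Ccl4 −6.30 and −5.96, the complement gene C1qb −6.29 and −5.22, and Ly6c2 −6.24 and −5.46. The granule gene Nkg7 had −6.20 and −4.07, the myeloid transcription factor Cebpb −6.02 and −4.88, Apoe −5.69 and −5.15, and Thbs1 −5.69 and −5.42. Many member arms held no UMI of these genes, so the ratios depend on the added UMI and are not bounds. The level of Lyz2 was 11.2, 7.41, 109 and 18.9 CPM in the long member arms, and between 2203 and 3089 CPM in the others.

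**Figure D2:**
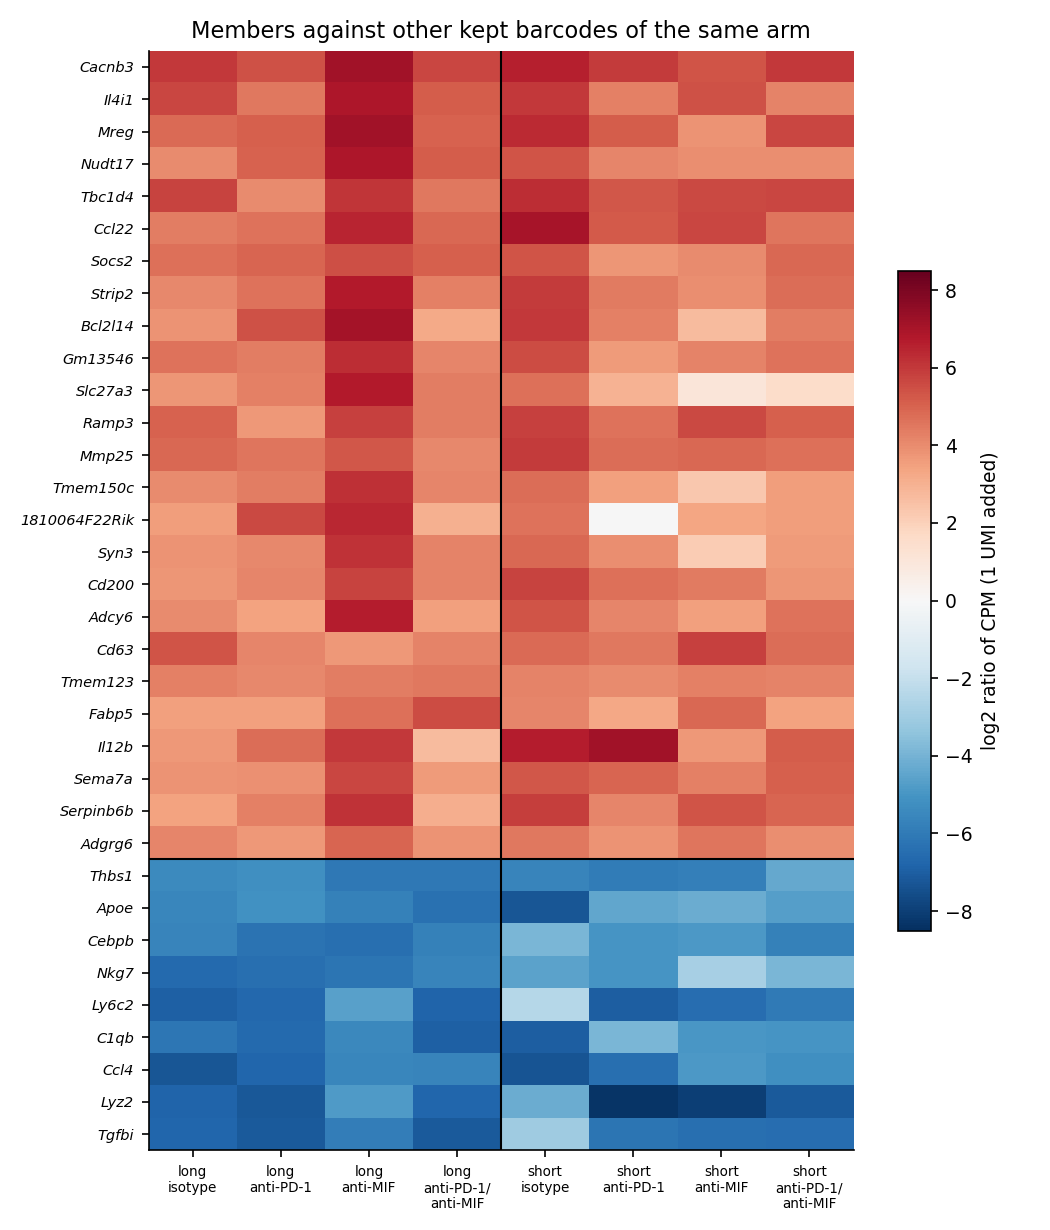
Colour gives the log2 ratio of member CPM to the CPM of other kept barcodes, 1 column per arm of the long and short cohorts and with the leading genes (markers among them) above the horizontal line and genes with the lowest ratios under it. The leading genes read above 0 and the lowest genes below 0 across the columns, except 1810064F22Rik, which had 0 UMIs in the short anti–PD-1 members.

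A list of NF-kB genes and of transcription and cytokine-signaling genes of maturing DCs was often higher in members. In the long cohort 19 of 25 list genes were higher and 0 of 15 lower, with a median log2 ratio of 1.85. The short counts were 13 of 23 higher and 0 of 19 lower, with a median of 1.93. Here and in the lists after it, higher genes are counted among those with at least 50 member UMIs and lower genes among those with at least 1000 UMIs in the others. The shares over all genes on the same bases were 15.1% higher and 20.7% lower for the long cohort, against 25.8% and 17.2% for the short. The minimum of 50 member UMIs itself favors genes that are high in members, and medians are over genes that met either minimum. Relb, the non-canonical NF-kB subunit, had mean log2 ratios of 3.93 and 3.81, with 741 CPM in all long members against 30.5 CPM in C1q barcodes. The others counted in both cohorts were Rel (2.48 and 2.39), Nfkb2 (2.67 and 2.14), Nfkbib, Traf1 (3.74 and 3.40), Birc2, the NF-kB-inducing kinase gene Map3k14 (3.14 and 2.79), Etv3 (3.25 and 3.28), Stat4, which carries the IL-12 receptor signal (3.86 and 3.88), Id2, and the DC transcription factors Irf8 (1.71 and 1.95), Batf3 (2.83 and 3.06) and Zbtb46 (2.80 and 3.01). Nfkb1 did not reach 2-fold in every arm (1.37 and 1.08).

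Of the costimulatory ligands 5 of 10 were higher and 0 of 4 lower in the long cohort, beside 15.1% and 20.7% of all genes. For short members 4 of 6 were higher and 1 of 6 lower, beside 25.8% and 17.2%. The medians were 2.17 and 1.83. Cd40, the receptor through which helper T cells license DCs, had mean log2 ratios of 2.17 and 2.49, Cd83, which stabilizes MHC class II and CD86, 3.12 and 2.89, the adhesion ligand Icam1 1.85 and 1.83, and Il15ra, which presents IL-15 to lymphocytes, 3.30 and 2.57. Cd80 was higher in the long cohort (2.37) and had 1.51 in the short cohort. Cd86 had 0.46 and 0.49, with 405 CPM in members against 328 CPM in the others in the long cohort. The ligand that was lower in the short cohort was Cd48 (−1.99).

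Of the inhibitory and regulatory genes, 5 of 9 were higher and 4 of 8 lower in the long cohort, and 5 of 7 higher and 4 of 8 lower in the short cohort, with medians of 1.21 and 1.17. The PD-1 ligand genes were among the higher ones, Cd274 with mean log2 ratios of 1.96 and 1.69 and Pdcd1lg2 with 3.31 and 3.49, next to Cd200, Il4i1 and Socs2 described above. The lower ones were Havcr2 (TIM-3; −3.96 and −3.03), Lgals9, its ligand galectin-9 (−3.47 and −3.34), Vsir (VISTA; −3.44 and −2.42) and Lilrb4a (−4.04 and −2.50), which macrophages also carry.

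Chemokines split. In the long cohort 2 of 5 were higher and 8 of 11 lower, and in the short cohort 4 of 5 were higher and 7 of 12 lower, with medians of −3.62 and −2.69. Ccl5, which attracts T and NK cells, was the most abundant, with 7622 CPM in members against 766 CPM in the others in the long cohort, and 5487 against 705 CPM in the short cohort. Ccl17, which shares the receptor CCR4 with Ccl22, was higher in the short cohort (2.93) and had 2.54 in the long cohort, where not every arm reached 2-fold. Cxcl16 was higher in the short cohort (2.15) and had 1.79 in the long cohort. Inflammatory chemokines that recruit monocytes and neutrophils were lower, Ccl2 with −4.79 and −4.53 and Cxcl2 with −5.22 and −4.85. Ccl19, a CCR7 ligand, was listed at 0 UMIs in the members of the named arms of both cohorts. Of the cytokines, Il12b and Il15 were higher in the long cohort and Il12b in the short cohort, of 6 and 3 with enough member UMIs. The medians were −1.40 and −0.88, Tgfb1 was lower in both (−1.74 and −2.47) and Il18 in the short cohort. The list also held Il12a, Il10, Il23a, Il18 and Il1a, each at 0 UMIs in the members of the named arms.

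Antigen uptake and sensing had the lowest median of the functional lists, −3.88 in the long and −3.41 in the short cohort, and 10 of 11 and 9 of 12 genes were lower, beside 20.7% and 17.2% of all genes, with 0 higher. The Fc receptors Fcgr1 (−5.10 and −3.70), Fcgr2b (−4.96 and −4.90) and Fcgr3 (−5.50 and −4.42) and the sensor Tlr2 (−3.50 and −3.14) were among them.

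Of the MHC class II pathway, 1 of 11 genes was higher and 5 of 15 lower in the long cohort, and 0 of 8 higher and 7 of 14 lower in the short cohort, with medians of −1.34 and −0.96. Those lower in both were H2-DMb1, which helps load peptide (−3.27 and −3.25), the lysosomal genes Ctsl, Ctsb and Cd68, and March1, the ligase that sends class II molecules to breakdown (−4.13 and −2.79). H2-Eb2 was the gene that was higher in the long cohort. Of the MHC class I pathway, 6 of 20 genes were higher and 1 of 19 lower in the long cohort, beside 15.1% and 20.7% of all genes, with a median of 1.00. For short members 5 of 16 were higher, close to the 25.8% of all genes, and 0 of 18 lower, with a median of 0.84. The proteasome activator Psme2 (2.36 and 2.23), Psme1 (1.44 and 1.44), the immunoproteasome subunit Psmb8 (1.35 and 1.47) and the class Ib gene H2-Q4 (1.77 and 1.80) were higher in both.

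Of a list that mixes survival and death genes, 6 of 11 were higher in the long and 6 of 8 in the short cohort, beside 15.1% and 25.8% of all genes, and 1 of 9 and 1 of 10 were lower, with medians of 0.73 and 0.39. The higher ones were Bcl2a1a, Bcl2a1b and Bcl2a1d, near-identical copies between which reads may be split, Bcl2l14, Serpinb6b and the granzyme B inhibitor Serpinb9 (3.49 and 4.05), and the lower one was Bcl2 (−3.61 and −2.61). Of the migration and cytoskeleton genes, 6 of 9 were higher and 4 of 14 lower in the long cohort, and 6 of 8 higher and 4 of 13 lower in the short cohort, with medians of −0.28 and −0.43. Cacnb3, Marcks (2.37 and 2.44), Marcksl1 (3.68 and 3.59), Myo1g (2.79 and 2.84), Cd63 and Anxa3 were higher. The chemokine receptors Ccr1, Ccr2 and Cx3cr1 were among the lower ones, Ccr2 with −4.74 and −4.29.

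Glycolysis genes were lower in 8 of 12 in the long and 8 of 14 in the short cohort, beside 20.7% and 17.2% of all genes, with 1 of 11 and 0 of 7 higher and medians of −1.63 and −2.07. Ldha had −2.37 and −2.11 and Pkm −2.09 and −2.55, and the exception was Slc2a6 in the long cohort (1.49). Among MIF and its receptors 0 of 4 were higher and 1 of 5 lower in each cohort, near the share over all genes, with medians of −1.66 and −1.53, Mif itself in the long cohort (−2.08) and Cd44 in the short cohort (−2.96). Cd74, the MIF receptor that is also the class II invariant chain, had −0.32 and 0.31. Of the type I interferon-stimulated genes 0 of 7 and 0 of 4 were higher and 4 of 14 and 1 of 15 lower, with medians of −1.22 and −1.04. Of the interferon-γ GTPases 1 of 4 and 0 of 2 were higher and 3 of 9 and 2 of 11 lower, with medians of −0.99 and −1.33, and the short count of lower genes is near the 17.2% of all genes. The immediate early and heat shock list had 1 of 12 and 1 of 9 higher, the nuclear receptor Nr4a3 in both (2.43 and 3.40), and 5 and 6 of 16 lower with medians of −1.02 and −1.37, with Fos at −3.31 and −3.49. Of the 3 cell cycle genes measured (medians 1.48 and 1.52), Tubb5, a tubulin, was higher in both cohorts (1.59 and 1.52) and Stmn1 lower in the long cohort (−3.30). Mki67 was detected in 2 long members and 1 short member.

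Most markers of other cells were low in members. All 9 measured of 10 macrophage genes were lower in each cohort, with a summed level of 169 CPM in long and 68.3 CPM in short members against 7929 and 2724 CPM in the others. C1qa was detected in 4.20% of all long and 3.39% of all short members, against 6.39% and 1.73% of T barcodes. The monocyte list summed to 175 CPM in long and 639 CPM in short members, with Lyz2 and Plac8 its most abundant genes, and all 6 and 7 measured were lower. Col1a1, Col1a2, Col3a1, Dcn and Pdgfrb of fibroblasts were at 0 UMIs. Of the 8 melanoma markers 7 were at 0 in the long and 6 in the short cohort, with Mitf the most abundant at 0.926 and 19.1 CPM. The neutrophil list summed to 3.70 and 2.73 CPM, the B cell list to 5.55 and 2.73 CPM, and the T cell genes outside the rule to 28.7 and 10.9 CPM, with Cd4, Cd28 and Lck at 0. The NK list read 247 and 210 CPM, all of it Klrk1, which was higher in the short cohort (1.53), with Ncr1, Klrb1c, Gzma, Eomes and Prf1 at 0. The proliferation list summed to 10.2 and 10.9 CPM. Of the 8 genes in the type 2 conventional DC list, Cd209a was at 0 and Sirpa and Itgam were lower in both cohorts. The other genes of that list are not given here. The plasmacytoid list outside Siglech, led by Tcf4, summed to 167 and 194 CPM.

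Members were next placed beside other gated barcodes: Clec9a/Xcr1 barcodes (at least 2 UMIs of the 2 type 1 conventional DC genes; 43 long and 46 short), MHC class II-high barcodes without C1q (at least 0.5% of UMIs on H2-Aa, H2-Ab1 and H2-Eb1; 245 and 640), C1q barcodes (at least 5 C1q UMIs; 587 and 628) and T barcodes (313 and 405). These gates read the same counts, so the values are given without a test, here over all members with the fifth hashtag. Irf8, a factor that type 1 conventional DCs need, had 1139 CPM in members and 1168 CPM in Clec9a/Xcr1 barcodes of the long cohort, and 1158 and 954 CPM in the short cohort. Batf3, its partner, had 263 and 156 CPM in the long and 232 and 124 CPM in the short cohort. Flt3, the growth factor receptor of DCs, had 375 CPM in members, 156 in Clec9a/Xcr1, 32.3 in MHC class II-high and 2.03 in C1q barcodes of the long cohort. Wdfy4, needed for cross-presentation by type 1 DCs, had 2.62 CPM in members and 776 in Clec9a/Xcr1 barcodes, and in the short cohort 11.5 and 767 CPM. Clec9a was detected in 10.1% of long and 13.6% of short members, against 0% and 0.247% of T barcodes. It was also in 4.60% and 4.62% of C1q barcodes and in 6.12% and 2.66% of MHC class II-high barcodes. Xcr1 was detected in 0.840% and 1.69% of members, against 0% of T barcodes in both cohorts. Members thus shared Irf8, Batf3 and Flt3 with the Clec9a/Xcr1 barcodes and had little Wdfy4, Clec9a or Xcr1. Clec9a had 18.3 CPM in members against 287 in Clec9a/Xcr1 barcodes of the long cohort, and Xcr1 1.74 against 249. In the short cohort these were 32.2 against 250 and 2.30 against 117 CPM. Clec9a and Xcr1 define that gate. Of the 9 genes in the type 1 conventional DC list, Irf8 and Batf3 were higher than in the other kept barcodes in both cohorts. Naaa was lower in both and Wdfy4 in the long cohort. The counts were 2 of 2 higher in each cohort, and 2 of 3 lower in the long and 1 of 3 in the short. Beside them, 15.1% and 25.8% of all genes were higher and 20.7% and 17.2% lower. Tlr3 was at 0 UMIs in members of the named arms of both cohorts, and Cadm1 in the short cohort.

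The class II genes H2-Aa, H2-Ab1, H2-Eb1, H2-DMa, Cd74 and Ciita were lower in members than in each of the antigen-presenting gates in both cohorts. H2-DMb2 was the exception, with 101 CPM in members against 64.4 CPM in C1q barcodes of the long and 41.3 against 29.5 CPM of the short cohort. H2-Ab1 had 839 CPM in members against 7877 in Clec9a/Xcr1, 6273 in MHC class II-high and 4722 in C1q barcodes of the long cohort. Short members had 1192 CPM against 7158, 5318 and 4665. H2-Aa had 3307 CPM against 10653, 8595 and 6227 in the long cohort, and Cd74 6756 against 27976, 23364 and 18097. Ciita, the master activator of class II transcription, had 19.2 CPM against 261, 172 and 77.3 in the long, and 50.5 against 193, 140 and 91.7 in the short cohort. H2-DMa had 61.9 CPM against 759, 653 and 570 in the long cohort, close to the 47.7 CPM of T barcodes. The MHC class II-high and C1q gates were drawn with class II or C1q genes, and the class II-high gate had to be high in H2-Aa and H2-Ab1.

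The class I genes B2m and H2-K1 were highest in members, whereas Tap1, a peptide transporter subunit, had 380 CPM in members against 383 in Clec9a/Xcr1 barcodes in the long and 276 against 278 CPM in the short cohort. B2m, the light chain of class I, had 5412 CPM in members, 2615 in Clec9a/Xcr1, 3240 in MHC class II-high, 3417 in C1q and 3253 in T barcodes of the long cohort, and 5163 CPM against 2508, 3956, 4193 and 3531 in the short cohort. H2-K1 had 3671 CPM against 1452, 1836, 1744 and 3138 in the long cohort. Ccl5 in members, 7514 CPM in the long and 5698 in the short cohort, exceeded T barcodes (2988 and 3343 CPM), while Clec9a/Xcr1 barcodes had 82.0 and 111 CPM. Mif was lowest in members of the 5 gates in both cohorts, with 225 and 287 CPM against 495 and 519 in Clec9a/Xcr1, and 899 and 1244 in C1q barcodes.

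**Figure D3:**
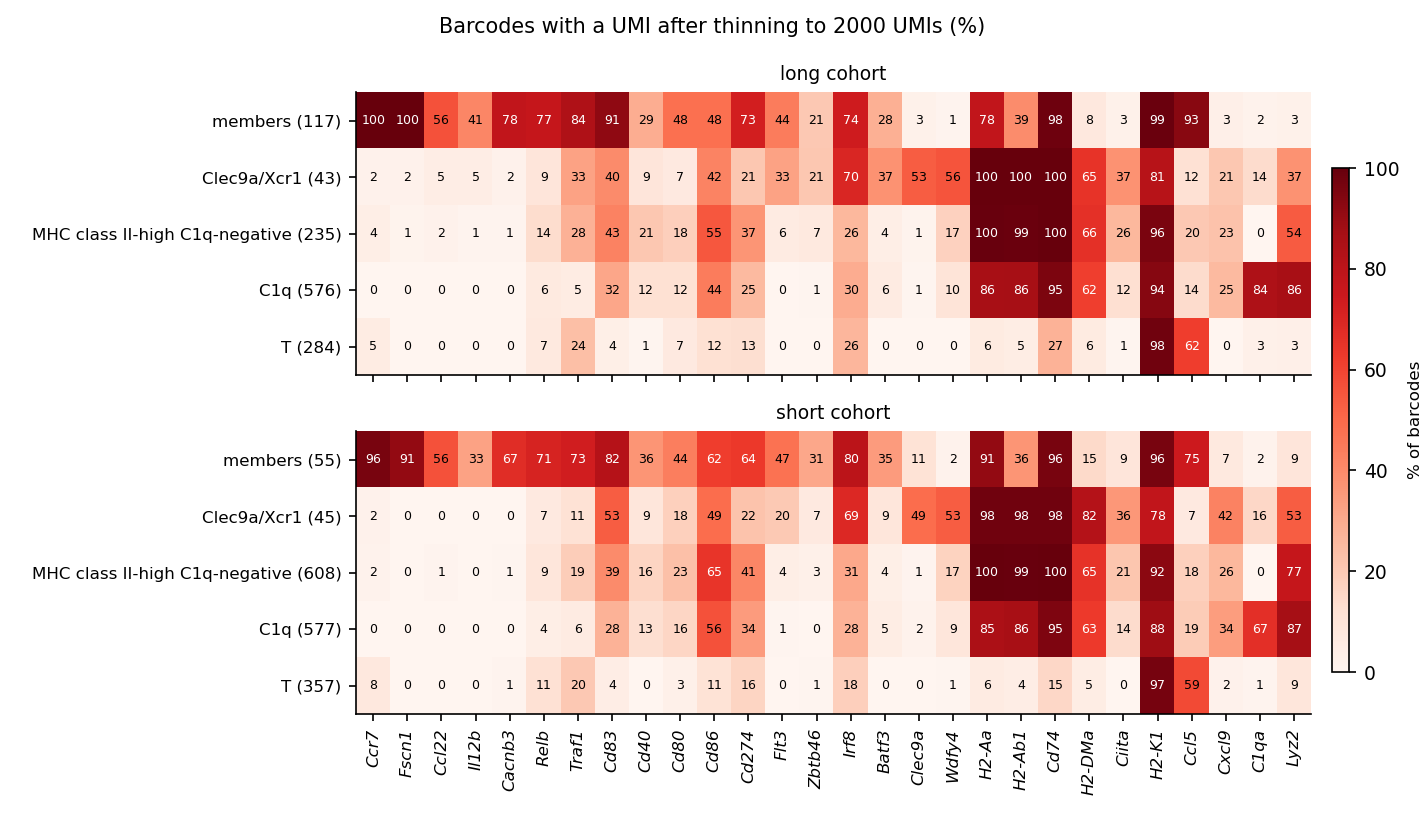
Colour gives the percent of barcodes with a UMI of each selected gene after thinning to 2000 UMIs per cell. Members and the 4 other gates are shown for the long and short cohorts. In the long cohort H2-Ab1 was detected in 39.3% of members, against 100%, 99.1% and 86.5% of Clec9a/Xcr1, MHC class II-high and C1q barcodes. T barcodes stood at 4.93%. Relb (76.9%) and Ccl5 (93.2%) were detected more often in long members than in each of the other gates.

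Among themselves the members were uneven in chemokine and cytokine RNA. In the long cohort 53 members had both Ccl22 and Il12b, 46 Ccl22 alone, 7 Il12b alone and 13 neither. The short cohort had 22, 27, 3 and 7 such members. The 10 members with most UMIs held 50.3% of Ccl22 and 55.5% of Il12b UMIs among 119 in the long, and 59.3% and 90.7% among 59 in the short cohort. For the rule gene Ccr7 the same shares were 21.7% and 42.6%. Ccl5 had UMIs in 94.1% of long and 83.1% of short members.

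Ccl17 was detected in 31 long members (26.1%) and 17 short members (28.8%), and each of these also had Ccl22. The Ccl22 level was 1739 CPM in long members with Ccl17 and 584 CPM in those without, and 1150 and 537 CPM in the short cohort. Cells with more UMIs more easily show any gene, and the depth differed between these sets, with medians of 10506 and 8252.5 UMIs in the long cohort. The long members with and without Il12b had 2528 and 4301 CPM of H2-Aa, and 323 CPM of Cd80 without and 322 with Il12b. Their medians were 9695.5 and 7957 UMIs. Among short members H2-Aa was at 3783 CPM with and 3565 CPM without Il12b. Il6 was found in 12.6% and 10.2% of members, and Aldh1a2, a retinoic acid enzyme, in 8 long and 2 short members.

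The share of members among kept barcodes differed between arms. In the long cohort it was 6.92% with isotype (11 of 159; exact Clopper-Pearson 95% interval 3.50 to 12.04), 3.63% with anti–PD-1 (14 of 386; 2.00 to 6.01), 8.83% with anti-MIF (79 of 895; 7.05 to 10.9) and 3.47% with both antibodies (10 of 288; 1.68 to 6.29). In the short cohort it was 3.09% with isotype (23 of 744; 1.97 to 4.60), 0.525% with anti–PD-1 (9 of 1714; 0.240 to 0.994), 1.41% with anti-MIF (8 of 567; 0.611 to 2.76) and 1.89% with both (9 of 476; 0.868 to 3.56). The intervals cover counting error only. Each long arm lay above its short counterpart, and anti–PD-1 alone lay below isotype in both cohorts.

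Arms were compared as 4 matched pairs by flipping the sign of each pair in turn (exact permutation, two-sided). The smallest p that 4 pairs allow is 0.13, and the p-values were adjusted over the 3 contrasts. The share was 3.98 ± 2.47 percentage points higher in the long than in the short cohort (mean ± SD, n = 4 pairs, higher in 4 of 4, exact p = 0.13, adjusted 0.375). With anti–PD-1 it differed by −2.68 ± 2.42 points (n = 4, lower in 3 of 4, exact p = 0.25, adjusted 0.375), the exception being the combination against anti-MIF in the short cohort, +0.480. With anti-MIF it differed by 0.360 ± 1.62 points (n = 4, higher in 2 of 4, exact p = 0.75, adjusted 0.75). None of the contrasts passed the threshold, and this design could not have done so. When only barcodes with a Ptprc UMI were counted, the mean differences were −1.28 points with anti–PD-1 and 2.59 points between cohorts. With a top hashtag of at least 5 times the second they were −4.06 and 5.90 points.

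The make-up of the rest of an arm moved too. T barcodes made up 37.7%, 20.2%, 12.2% and 15.3% of the long arms in the order isotype, anti–PD-1, anti-MIF and both, and 5.51%, 12.7%, 9.88% and 9.45% of the short arms. C1q barcodes made up 11.3%, 13.2%, 42.0% and 26.4% of the long arms, and 19.9%, 12.3%, 15.9% and 11.6% of the short arms. With barcodes without CD3 UMIs as the denominator, the long isotype and anti-MIF arms held 11.5% and 10.5% members, and the mean difference with anti-MIF turned to −0.465 points. With a top hashtag of at least 5 times the second, the long isotype arm held 11.9% members (7 of 59) and the anti-MIF arm 10.5% (71 of 673), so isotype was then the highest arm. The part of the other cells in the shares was not tested further.

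**Figure D4:**
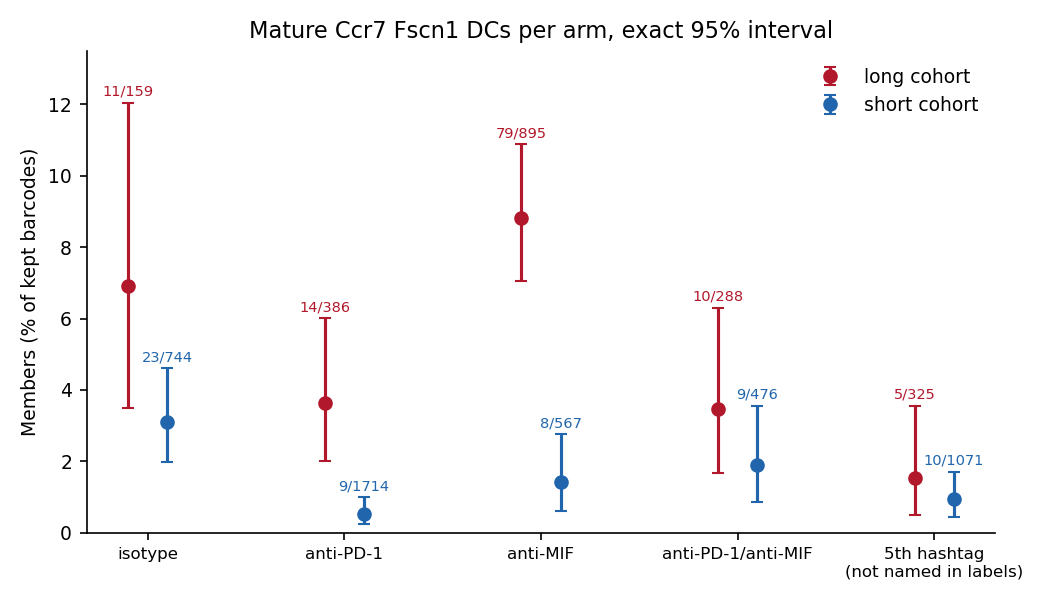
Share of members among kept barcodes (percent, y axis) per arm of the long and short cohorts, with exact 95% intervals that cover counting error only. With the 3-fold hashtag rule plotted here, the long anti-MIF arm is highest at 8.83% and the short anti–PD-1 arm lowest at 0.525%.

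Within members, UMIs were summed per arm (58365 to 750245 UMIs) and the 8 sums were fitted with additive terms for cohort, anti–PD-1 and anti-MIF by the quasi-likelihood test of edgeR with Benjamini-Hochberg adjustment at 0.05, over 1955 genes. Since the arms stand in as replicates of each other, p-values measure the spread between single pooled samples.

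No gene passed for anti-MIF in edgeR (0 of 1955, 0%), 71 genes had an unadjusted p under 0.05, and DESeq2 also called 0. The count was 6 without a filter on low counts and 13 without the arms of under 10 members. The last fit leaves the short cohort with isotype alone and 5 sums for 4 coefficients, with 1 residual degree of freedom. The 3 genes with the smallest p are given as values. Gbp2, a guanylate-binding protein gene, was at 257, 482, 131 and 189 CPM in the long arms (isotype, anti–PD-1, anti-MIF, both) and at 143, 365, 34.3 and 111 CPM in the short arms. Each arm with anti-MIF thus lay below its matched arm, and the fitted log2 difference was −1.27 ± 0.28 (SE, edgeR adjusted p = 0.303). Rsad2, the antiviral gene viperin, had −2.77 ± 0.56 (edgeR adjusted p = 0.303), but 70 of its 74 UMIs in the short isotype arm came from 1 member. Ifitm1, a membrane protein that blocks viral entry, had 1.43 ± 0.31 (edgeR adjusted p = 0.303) and read 134, 119, 244 and 322 CPM in the long and 347, 174, 565 and 1232 CPM in the short arms, and its fitted difference turned to −0.06 when cells were thinned to 2000 UMIs. A single member held 94 of its 183 UMIs in the long anti-MIF arm, 19 of 34 in the long and 59 of 78 in the short combination arm. Of the MIF list the 5 genes tested had positive fitted differences with a median of 0.48, and of the type I interferon list 1 of 7 did, with a median of −1.04, beside −0.01 over all genes tested, and none of them passed.

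For anti–PD-1, 2 of 1955 genes passed (0.102%), both higher. Cxcl9, an interferon-γ-induced chemokine for CXCR3-bearing T cells, read 22.4, 185, 13.3 and 47.3 CPM in the long and 11.02, 333, 0 and 205 CPM in the short arms. It was higher in 4 of 4 pairs, with a log2 difference of 3.45 ± 0.55 (SE, edgeR adjusted p = 0.0252). Few members carried it. In the long anti–PD-1 arm 24 of 25 UMIs sat in 1 member, and in the short combination arm 13 of 13. In the short anti–PD-1 arm 21 UMIs lay in 4 members, 14 of them in 1. Hspb1, a small heat shock protein, had 4.68 ± 0.63 (edgeR adjusted p = 0.0252), was higher in 2 of 4 pairs and rested on 80 UMIs in 1 long anti–PD-1 member and 19 in 1 member of the long combination arm. Both genes fell below the filter without the 10 members that dominated a gene named for anti-MIF or anti–PD-1 in an arm. In that fit 0 genes passed, an alternative chosen after seeing the data. The count was also 0 with at least 2 UMIs of both rule genes, 1 with DESeq2 or the 5-fold hashtag rule, 19 without a filter on low counts, 12 in the fit of 5 sums and 0 to 4 with 1 arm left out.

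The third gene for anti–PD-1 was Ndrg1, a stress-response gene, at 190, 81.5, 240 and 66.2 CPM in the long and 270, 111, 257 and 79.0 CPM in the short arms. Every arm with anti–PD-1 lay below its matched arm, and the fitted log2 difference of −1.50 ± 0.28 did not pass (edgeR adjusted p = 0.0821). Ccl22 had −0.78 ± 0.24 and Mif −1.01 ± 0.32, each lower in 4 of 4 pairs and neither past the threshold (edgeR adjusted p = 0.579 and 0.588). Of the glycolysis list 1 of 10 genes tested had a positive fitted difference, with a median of −0.49, and none passed. The other lists had no gene past the threshold for anti–PD-1 or anti-MIF except Cxcl9 among the chemokines.

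**Figure D5:**
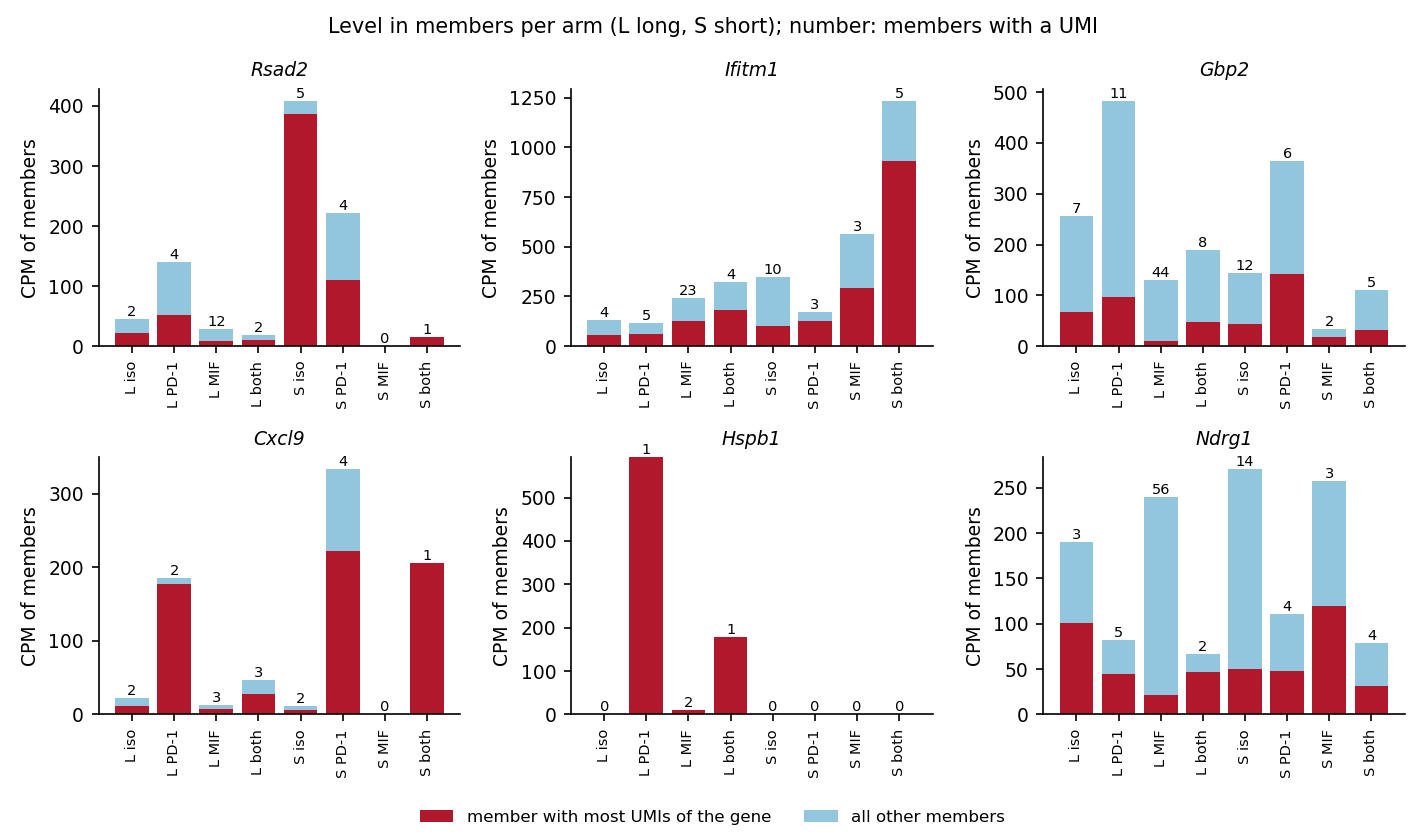
CPM of the 3 named genes for anti-MIF (top) and for anti–PD-1 (bottom) in the members of each arm, with the member holding most UMIs in red, all other members in blue, and the number of members with a UMI above each bar. Hspb1 and most Cxcl9 bars are largely 1 member, whereas Gbp2 is spread over 44 of 79 members in the long anti-MIF arm. In the short cohort Gbp2 rests on 2 UMIs in 2 of 8 anti-MIF members and 7 UMIs in 5 of 9 combination members.

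Between the cohorts 28 of 1955 genes passed (1.43%), 14 higher and 14 lower in long than in short members (0.716% each), and 26 of them had the same direction in 4 of 4 pairs. The exceptions were Cxcl10 and Hspb1, which was at 0 UMIs in each named short arm. The 28 include the rule gene Fscn1, whose levels above are a description only. Among the higher genes with 1 direction in all 4 pairs, the largest difference was that of Ccnd3, a D-type cyclin, at 201, 119, 183 and 170 CPM in the long and 44.1, 47.6, 34.3 and 31.6 CPM in the short arms, with a log2 difference of 2.06 ± 0.37 (edgeR adjusted p = 0.0233). The arms of the cohorts did not overlap. Eno3, a muscle-type enolase, was higher in the long cohort by 2.02 ± 0.43, Aup1, a lipid droplet gene, by 1.60 ± 0.36 and H1f0, a linker histone, by 1.54 ± 0.33 on the log2 scale (edgeR adjusted p = 0.0379, 0.0407 and 0.0363).

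Nedd4l, a ubiquitin ligase, was lower in long members, with 55.9, 66.7, 59.98 and 47.3 CPM against 243, 127, 171 and 316 CPM and a log2 difference of −1.89 ± 0.34 (edgeR adjusted p = 0.0233). Gm17276 (−1.81 ± 0.37), Chst11, a sulfotransferase (−1.48 ± 0.29), Ifitm1 (−1.45 ± 0.30), Picalm, an endocytosis adaptor (−1.44 ± 0.31), and Prdx5, a peroxiredoxin (−1.33 ± 0.29), were also lower, with edgeR adjusted p between 0.0351 and 0.0379. Among the smaller changes Tuba1a (1.08), Tubb5 (1.07), Cnn2 (1.11) and Actg1 (0.94) were higher in long members, whereas Nr4a3 (−0.99) and Btg2 (−1.28) were lower. Gm42418 (−0.77) and AY036118 (−0.80), loci that overlap ribosomal RNA repeats and can follow RNA quality, were lower too, and their part in the other differences was not tested. The long anti-MIF arm held 79 of the 114 members of the named long arms. Without it 0 genes passed, but leaving out most other arms also cut the count. The count was 1 without long anti–PD-1 or short anti-MIF and 2 without short isotype or short anti–PD-1. It was 4 without long isotype and 12 without the short combination, and the largest count with 1 arm left out was 29. Thinning to 2000 UMIs left 5, at least 2 UMIs of both rule genes 7, the fit of 5 sums (1 short arm) 16 and DESeq2 18. Without the 10 members that dominated a gene named for anti-MIF or anti–PD-1, 17 passed, 16 of them among the 28. Those members were not chosen for the genes of this contrast, apart from Ifitm1, which was named in both. Of the 10 genes named first in this contrast Ccnd3, Nedd4l and Chst11 kept the call in that fit. Eno3, Aup1, H1f0, Gm17276, Ifitm1, Picalm and Prdx5 kept the direction but did not pass. Dominance by 1 member was not tested for the genes other than Ifitm1. Chst11 had 14 of 17 UMIs of the short combination arm in 1 member, and Prdx5 38 of 60 of the short isotype arm.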

How the data were processed

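Reads had been mapped by the authors (mm10, Cell Ranger 7.1.0), per the submitters' processing notes, which also name Seurat 5.1.0, R 4.3.2 and DESeq2. They deposited whole-number UMI counts per gene or hashtag and barcode, filtered to called cells and not normalized. A doublet caller was not run here: the hashtag rule removes doublets between arms but not within an arm. Free RNA was not subtracted. Positions came from GENCODE vM21 on GRCm38, joined by Ensembl identifier (32158 of 32285 matched), and promoters from RefSeq GRCm38.p6.

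Barcodes were filtered and gated as the report states, with Python 3.11.15, numpy 2.4.6, pandas 2.3.3, scipy 1.17.1 and matplotlib 3.10.9. Member UMIs were summed per arm and tested with edgeR 4.0.16 in R 4.3.3 (filterByExpr, TMM, quasi-likelihood test, Benjamini-Hochberg over 1955 genes), with DESeq2 1.42.0 as an alternative. The fit was also run on simulated counts with a single dispersion for all genes. Such counts do not model UMIs concentrated in 1 member, and the outcome is not given here. Depth per arm ran from 58365 to 750245 member UMIs. Intervals are at the 95% level and cover counting error only.

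Named genes were the rule genes and markers, the 25 with the highest mean ratio (at least 100 member UMIs, higher in all 4 arms) and the 10 with the lowest in the long cohort, examples from the gene lists with the most abundant first, and, for each edgeR contrast, up to 10 genes with the largest change and 1 direction in all 4 pairs, or the 3 with the smallest p where under 3 passed. Genes given as "among the smaller changes", and Cxcl10 and Hspb1 between cohorts, were named after their values were seen. Some genes that these rules or the lists give are not reported here. The members and the lists were chosen with earlier results of these data known, and the lists were written from general knowledge.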

Additional observations from a re-analysis of the deposited data

Results flagged for a closer look

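The group of the hashtag anti-PD1-MIF-DDT is not named in the labels, and its members (5 in the long and 10 in the short cohort) were in no test. Of the 6 genes named for anti-MIF or anti–PD-1, those are listed whose exact Poisson 95% interval in these members lay above that of the isotype members of the same cohort. Cxcl9 read 1073 CPM in the long cohort (71 UMIs in 2 of 5 members, 61 of them in 1; interval 838 to 1354) against 22.4 CPM in isotype members (2.71 to 80.7). In the short cohort Cxcl9 read 101 CPM (7 UMIs in 2 of 10 members, 6 of them in 1; interval 40.6 to 208) against 11.02 CPM in isotype members (1.34 to 39.8). Ifitm1 read 423 CPM in the long cohort (28 UMIs in 3 of 5 members, 18 of them in 1; interval 281 to 612) against 134 CPM (69.3 to 234). The intervals cover counting error only, and differences between these samples were not tested.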

How the results depend on the processing

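No paired analysis was possible because each arm of a cohort was 1 hashtagged sample and the labels give no replicate numbers; the share contrasts pair arms within or between cohorts by design. The mean share difference with anti-MIF turned to −0.175 points when the top hashtag had to be 5 times the second and to −0.465 points with barcodes without CD3 UMIs as the denominator, and ranged from −0.157 to 1.04 when 1 pair was left out, the lowest without the long anti-MIF and isotype pair. The difference with anti–PD-1 ranged from −3.74 to −1.79 and that between cohorts from 2.84 to 4.78 with 1 pair left out, and both kept their sign. They were −1.28 and 2.59 when only barcodes with a Ptprc UMI were counted, and −4.06 and 5.90 with the 5-fold hashtag rule. The Ptprc condition also removed members, leaving 44 of 79 in the long anti-MIF arm. Genes at least 2-fold higher in members numbered 162 in the long and 65 in the short cohort after thinning to 2000 UMIs. With 1 arm left out, an alternative added after seeing the data, they numbered 288 to 488 and 186 to 282, and the lowest short count was without the isotype arm. Genes passing for anti-MIF numbered 6 without a filter on low counts, 13 without the arms of under 10 members (5 sums, 1 of them short, with 1 residual degree of freedom), and 0 to 0 with 1 arm left out. For anti–PD-1 they numbered 19 and 12 under the first 2 settings, 1 with DESeq2, 0 with at least 2 UMIs of both rule genes, 1 with the 5-fold hashtag rule, 0 without the members that dominated a named gene (added after seeing the data) and 0 to 4 with 1 arm left out. Between cohorts they numbered 18 with DESeq2, 7 with at least 2 UMIs of both rule genes, 5 after thinning, 16 without the arms of under 10 members and 17 without the dominating members. With 1 arm left out they ranged from 0 to 29: 0 without long anti-MIF, 1 without long anti–PD-1 or short anti-MIF, 2 without short isotype or short anti–PD-1, 4 without long isotype and 12 without the short combination. The dominating members were chosen by the genes named for anti-MIF or anti–PD-1 only. Causes of these moves were not tested. Over the named genes 145 of 270 alternatives kept the direction and the side of the threshold, 121 lost the call, 3 gained it and 1 reversed, Ifitm1 with anti-MIF at −0.061 after thinning. Arms of 8 to 14 members limit what single genes can show.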

Other observations

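The hashtag anti-PD1-MIF-DDT held 5 members among 325 kept barcodes in the long cohort (1.54%, exact 95% interval 0.501 to 3.55) and 10 among 1071 in the short cohort (0.934%, 0.449 to 1.71). Their Ccl22 level was 680 and 361 CPM, Il12b 1239 and 708 CPM, and Cacnb3 695 and 924 CPM in the long and short cohorts. Lyz2 was at 1829 and 1791 CPM, Ly6c2 at 559 and 520 CPM and Tgfbi at 907 and 159 CPM. In the long cohort the UMIs of each of these 3 genes came from 1 of 5 members, and in the short cohort from 3, 1 and 2 of 10 members.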
